A study of Mus musculus with 4 samples.

Results

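The epicardium, the outer surface of the embryonic mouse heart, was followed through 10 transcripts, namely 6 markers of the epicardium (Wt1, Tcf21, Upk3b, Upk1b, Msln and Bnc1), the simple keratins Krt8, Krt18 and Krt19, and Rarres2, which encodes chemerin. Their probes were taken by name and not by value, as all whose gene name in the scanner files was one of the 10. The 10 names themselves were chosen with earlier results of these data known. The names matched 12 of 41174 probes and 10 of the 19091 genes tested. RNA came from the atrioventricular canal (AVC), the segment between the embryonic atria and ventricles, of e10.5 embryos. Control pools were labelled as wild type and mutant pools as Tbx3 mutant, a hypomorphic genotype per the series title, both on a mixed background of Sv129 and C57Bl6 in equal parts. Each pool held tissue of 5 hearts, and each of the 4 arrays set 1 control pool (Cy3, green) against 1 mutant pool (Cy5, red), so 8 pools were measured. The structure of the Tbx3 allele is not given in the labels, and since the mutant pool carried Cy5 on every array, genotype and any gene-specific bias of the dyes cannot be told apart. Ratios are log2 of mutant over control pool on the same array and are given as mean ± SD with n = 4.

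The epicardium is a mesothelium that grows from the proepicardium over the heart tube and later sheds cells that become fibroblasts and vascular mural cells. Wt1, a zinc finger factor, and Tcf21, a basic helix-loop-helix factor, are the regulators most used to mark it, and Bnc1 is a zinc finger factor shared with other mesothelia and with epidermis. Upk3b and Upk1b encode uroplakins, membrane proteins first known from the bladder lining, and Msln encodes mesothelin, a surface glycoprotein of mesothelial cells. Krt8 (type II) pairs with Krt18 or Krt19 (both type I) to form the intermediate filaments of simple epithelia, and Krt8 and Krt18 are also active in early myocardium. Chemerin is a secreted ligand of the receptors encoded by Cmklr1 and Gpr1.

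Probes of 60 bases are shown for Krt19, which had the highest ratio, for Tcf21, whose mean was negative, and for Rarres2, which 2 probes measured.
Krt19: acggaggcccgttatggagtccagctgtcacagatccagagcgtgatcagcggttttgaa
Tcf21: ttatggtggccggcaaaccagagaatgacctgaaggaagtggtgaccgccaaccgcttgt
Rarres2: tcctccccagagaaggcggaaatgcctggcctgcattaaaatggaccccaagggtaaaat
In build mm7, the build of the files, these probes lie at chr11:100250117-100250176, chr10:22574524-22574583 and chr6:48530340-48530399, all listed on the minus strand. No annotation of that build was used, so exon and untranslated parts are not stated. The Wt1 probe (chr2:105024058-105024117, plus strand) was printed as 10 spots on each array.

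Every one of the 12 probes was well above background in all 8 channels, and none was saturated. Over the whole array, the median raw signal of a spot was 117.9 to 133.5 for control pools and 175.1 to 232.5 for mutant pools. Tbx3 itself fell by 1.35 on the log2 scale (SD 0.10, adjusted p = 0.0454, limma), lower on 4 of 4 arrays. It was the 1 gene of 19091 past the threshold of 0.05 (0.00524% of genes). A second, dim Tbx3 probe (mean log2 intensity 6.41) was well above background in only 4 of 8 channels. That probe read -0.22, -0.14, -0.23 and 0.03 on arrays 1 to 4. Array 2 stood apart, with an SD of 0.49 over all genes against 0.26 to 0.29 on arrays 1, 3 and 4, and without it 193 genes passed (1.01%). Its control pool held far more of some transcripts of uterus and of fibroblasts than the other control pools, as given below, so the mean of each of the 10 genes and the median of each list are given with and without array 2. All 7 listed heart muscle genes and all 6 listed endocardial genes were well above background in every channel. So were 17166 of the 19091 genes tested, so this does not mark out the labelled tissue.

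Krt19 stood higher in the mutant pool of every array and had the highest ratio of the 10. Its log2 level was 11.35, 11.22, 11.31 and 11.20 in control pools 1 to 4 and 12.80, 11.98, 13.28 and 12.56 in mutant pools 1 to 4. The 4 mutant pools thus all lay above the 4 control pools, as they did for 3.90% of all genes, and the groups lay apart in either direction for 9.01%. Control pools spanned 0.15 and mutant pools 1.30. The ratios were 1.45, 0.77, 1.97 and 1.36 on arrays 1 to 4, with a mean of 1.38 ± 0.49 (SD, n = 4), a 2.61-fold difference with a 95% interval from 1.87 to 3.64. Krt19 ranked 9 among 19091 genes by mean ratio and 77 by p, but did not pass after adjustment over all genes (adjusted p = 0.131, limma). An exact 2-sided sign permutation over 4 arrays cannot go below p = 0.125. Without array 2 it was 1.59 ± 0.33 and did pass (adjusted p = 0.0350), and without array 1, 3 or 4 the adjusted p lay between 0.346 and 0.602.

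Its partner Krt8 was positive on all 4 arrays but close to 0 on arrays 1 and 2. The level in control pools 1 to 4 was 13.44, 13.55, 12.98 and 13.20, and in mutant pools 13.47, 13.64, 13.79 and 13.60. The groups overlapped, since mutant pool 1 lay below control pool 2. Ratios of 0.03, 0.09, 0.81 and 0.40 gave a mean of 0.33 ± 0.36 (adjusted p = 0.375), or 0.41 ± 0.39 without array 2 (adjusted p = 0.203). A second Krt8 probe 3' of the first read 0.04, 0.0033, 0.62 and 0.27, again near 0 on arrays 1 and 2 and highest on array 3.

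Krt18, the type I keratin usually made with Krt8, was higher on 3 of 4 arrays. Control pools 1 to 4 read 14.34, 14.48, 13.78 and 13.88, and mutant pools 14.68, 14.08, 14.77 and 14.55. Mutant pool 2 lay within the control range, the other mutant pools above it. The ratios were 0.34, -0.40, 0.99 and 0.67, a mean of 0.40 ± 0.59 (adjusted p = 0.487), and 0.66 without array 2 (adjusted p = 0.0795). Set against each other within arrays, the Krt19 ratio exceeded the Krt18 ratio by 1.11, 1.16, 0.98 and 0.69 and the Krt8 ratio by 1.42, 0.67, 1.15 and 0.96. Krt19 thus lay above both other simple keratins on every array, a description for which no test was run.

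Promoters were looked at for Krt8 and Krt18 because these partner keratins lie side by side on chromosome 15 and point away from each other, with 23874 bases between their starts in build GRCm38.p6. RefSeq promoter entries matched 5 of the 10 genes (Bnc1, Krt8, Krt18, Tcf21 and Upk3b). The 250 bases before each start are printed 5′ to 3′ on the gene's strand, with the E-box letters CANNTG, the core bound by helix-loop-helix factors such as Tcf21, in capitals.
Krt8: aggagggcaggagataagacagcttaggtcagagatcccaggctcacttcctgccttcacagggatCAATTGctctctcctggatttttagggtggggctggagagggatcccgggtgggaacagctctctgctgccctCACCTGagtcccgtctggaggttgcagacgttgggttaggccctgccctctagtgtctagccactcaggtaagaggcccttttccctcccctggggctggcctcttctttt
Krt18: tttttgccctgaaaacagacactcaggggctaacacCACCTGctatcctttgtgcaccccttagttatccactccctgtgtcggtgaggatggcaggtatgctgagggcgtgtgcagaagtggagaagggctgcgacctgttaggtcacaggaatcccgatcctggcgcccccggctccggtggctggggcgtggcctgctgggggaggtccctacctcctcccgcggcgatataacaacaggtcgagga
These windows are chr15:102004343-102004592 on the minus strand and chr15:102027966-102028215 on the plus strand. E-box letters, which read alike on both strands, occurred 2 times before Krt8 and 1 time before Krt18, and 66.2% of 32851 promoter windows of this length held at least 1. The T-box core GGTGTGA, searched on both strands, was in 3.33% of windows and in none of the 5, the letters TATAAA in 12.4% and in none of the 5, and the AP-1 letters TGANTCA in 6.75% and in none of the 5. The GC box GGGCGG, on both strands, was in 32.7% of windows and 5 times before Bnc1, whose window was 83.6% G and C, and in none of the other 4. The Krt8 and Krt18 windows thus held no match of another motif, and no overlap with an E-box could occur. A match of letters does not show binding.

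**Figure D1:**
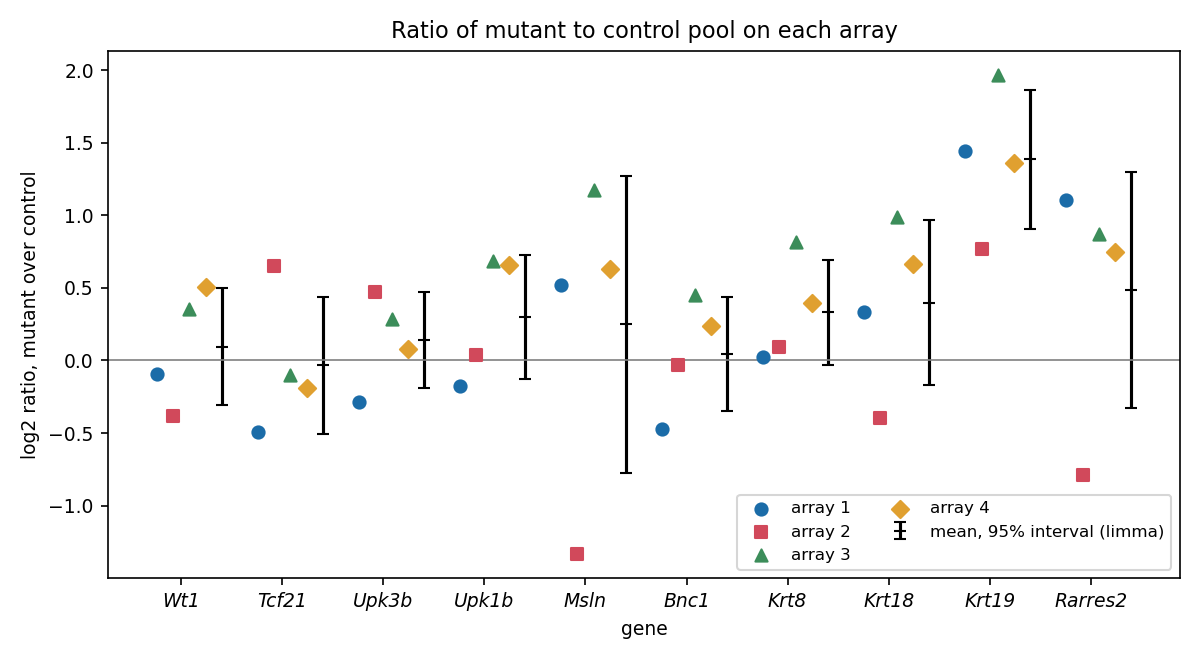
Log2 ratio of mutant over control pool (vertical axis) for each of the 10 genes (horizontal axis), with 1 point for each of the 4 arrays and the mean with its 95% interval from limma in black. Krt19 has all 4 points above 0.7 and an interval above 0, while the intervals of the other 9 genes include 0.

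Among the transcription factors, none differed between the genotypes beyond the spread of the arrays. Wt1 read 11.80, 12.09, 11.63 and 11.45 in control pools 1 to 4 and 11.71, 11.71, 11.98 and 11.96 in mutant pools, so the groups overlapped. Its ratios of -0.10, -0.38, 0.35 and 0.50 gave a mean of 0.09 ± 0.41 (adjusted p = 0.824). Without array 2 the Wt1 mean was 0.25 ± 0.31 (adjusted p = 0.307). The 10 spots of the Wt1 probe on an array differed from each other by an SD of only 0.01 to 0.02. That spread covers the spot alone, and not RNA extraction, labelling or hybridisation.

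Tcf21 had the 1 negative mean among the 10. It read 11.54, 11.35, 11.65 and 11.79 in control pools 1 to 4 and 11.05, 12.00, 11.55 and 11.60 in mutant pools. Ratios were -0.49, 0.65, -0.10 and -0.19, a mean of -0.03 ± 0.49 (adjusted p = 0.953), so array 2 alone was positive. With median centring in place of loess the mean turned to 0.32 (adjusted p = 0.246). Without array 2 the mean was -0.26 ± 0.20, with an unadjusted p of 0.0395 and an adjusted p of 0.193. Bnc1, at 10.51, 9.94, 10.04 and 9.81 in control pools and 10.04, 9.91, 10.49 and 10.05 in mutant pools, had ratios of -0.47, -0.03, 0.45 and 0.24 and a mean of 0.05 ± 0.40 (adjusted p = 0.921), or 0.07 without array 2 (adjusted p = 0.853). The Bnc1 groups overlapped as well.

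The membrane proteins of mesothelium showed no call either. Upk3b read 12.68, 12.20, 12.68 and 12.49 in control pools 1 to 4 and 12.40, 12.67, 12.97 and 12.57 in mutant pools. The ratios of -0.28, 0.47, 0.29 and 0.08 were negative on array 1 alone, with a mean of 0.14 ± 0.32 (adjusted p = 0.675), or 0.03 without array 2 (adjusted p = 0.915). Upk1b read 11.09, 10.502, 10.68 and 10.63 in control pools and 10.92, 10.54, 11.36 and 11.29 in mutant pools, with mutant pool 2 below control pools 1, 3 and 4. Its ratios of -0.18, 0.04, 0.68 and 0.66 separated arrays 1 and 2 from arrays 3 and 4, and the mean was 0.30 ± 0.44 (adjusted p = 0.487), or 0.39 without array 2 (adjusted p = 0.290).

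Msln had the widest spread of ratios among the 10. Control pools 1 to 4 read 7.93, 8.63, 8.09 and 7.89, and mutant pools 8.46, 7.30, 9.26 and 8.52. Mutant pool 2 was the lowest of the 8 pools and mutant pool 3 the highest. The ratios were 0.52, -1.33, 1.17 and 0.63, a mean of 0.25 ± 1.09 (adjusted p = 0.817). Left without array 2, Msln stood at 0.78, with an adjusted p of 0.0723.

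Rarres2 was higher in the mutant pool on arrays 1, 3 and 4 and lower on array 2. Its levels were 10.19, 11.06, 10.19 and 9.93 in control pools 1 to 4 and 11.29, 10.27, 11.07 and 10.68 in mutant pools. Control pool 2 lay above mutant pools 2 and 4, so the groups overlapped. The ratios were 1.11, -0.79, 0.87 and 0.75, a mean of 0.49 ± 0.86 (adjusted p = 0.546). A second probe, whose sequence is given above, read 0.98, -0.91, 0.92 and 0.75, with the same signs. Without array 2 the mean was 0.91 ± 0.18, a 1.88-fold difference, and Rarres2 passed over all genes (adjusted p = 0.0388), as 0.681% of genes did on the higher side, while without array 1, 3 or 4 the adjusted p lay between 0.792 and 0.814. Of the 3 chemerin receptors listed, Cmklr1 stood at 0.10 ± 0.03, Ccrl2 at -0.11 ± 0.23, and none passed. The median of the 3 was -0.0072, and 0.02 without array 2. Cmklr1 and Gpr1 were dim, with levels of 6.69 to 6.89 and 6.34 to 6.48 over the 8 pools. Their small ratios thus do not show a lack of change.

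**Figure D2:**
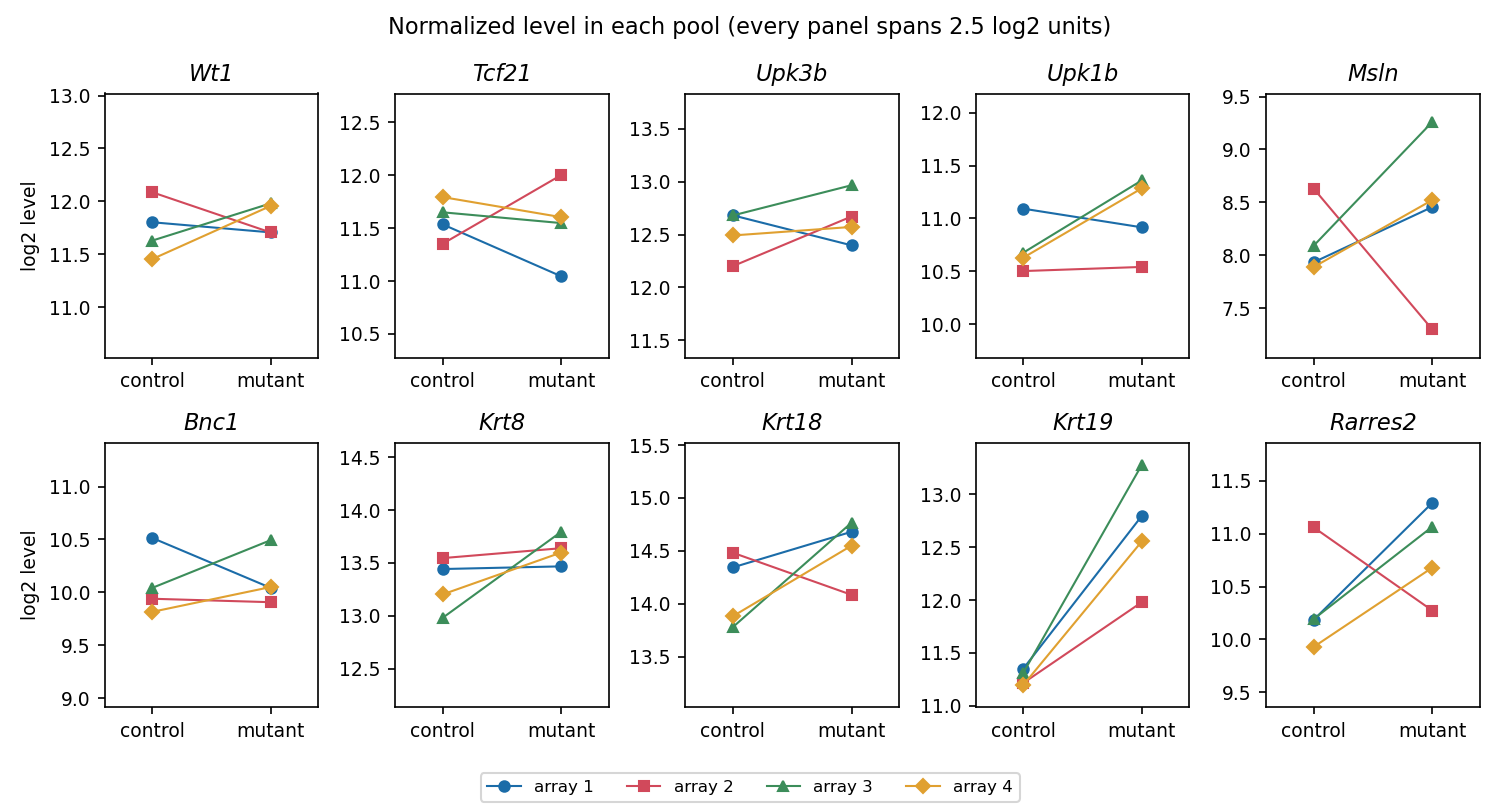
Log2 level after normalization (vertical axis) in the control and mutant pool of each array, 1 panel per gene and 1 line per array, with every panel spanning 2.5 log2 units. In the Krt19 panel all 4 lines climb from nearly equal control pools, and in the Msln and Rarres2 panels the line of array 2 runs opposite to the others.

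Over the 10 genes together, none passed after adjustment with 4 arrays, where 0.00524% of all genes did (limma). At an unadjusted p under 0.05 there was 1 gene of the 10, Krt19, against 14.6% of all genes, and that on the higher side, against 7.10%, with none on the lower side, against 7.45%. Krt8 and Krt19 were higher on all 4 arrays, against 12.3% of all genes, and none of the 10 was lower on all 4, against 12.6%. The median of the 10 means was 0.27, and 0.40 without array 2, while the median of all genes tested was 0.0012. Without array 2, Krt19 and Rarres2 passed after adjustment (1.01% of all genes), and 6 of the 10 had an unadjusted p under 0.05 (23.2% of all genes), 5 higher (12.0%) and Tcf21 lower (11.2%).

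Most of the epicardial markers, all but Msln and Tcf21, shared a pattern over the arrays, with ratios negative on array 1 and positive on arrays 3 and 4. On array 1, 5 of the 6 epicardial markers were negative, Msln being the exception, with a median of -0.23. On arrays 3 and 4, 5 of the 6 were positive, Tcf21 being the exception on both, with medians of 0.40 and 0.37. On array 2 they were split 3 to 3, at a median of 0.0032. The median of their means was 0.12, and 0.16 without array 2. Of all genes, 50.4%, 47.6%, 50.7% and 50.1% were positive on arrays 1 to 4, and 49.6%, 52.4%, 49.3% and 49.9% negative. The pattern was not particular to epicardial genes. On arrays 1, 3 and 4 the medians of general epithelial genes were -0.13, 0.19 and 0.16. Those of reported Wt1 targets were -0.21, 0.14 and 0.11. Heart muscle medians were positive on all of these arrays (0.21, 0.74 and 0.31) and mesenchyme medians negative (-0.26, -0.18 and -0.26).

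A list of 14 other epicardial and mesothelial genes showed the same order of arrays by median as the 6 markers. All 14 were negative on array 1 (median -0.29), 9 were negative on array 2 (median -0.15), and 10 and 11 were positive on arrays 3 and 4 (medians 0.26 and 0.15). Signs depended on the scaling, since with median centring 6 of the 14 and 4 of the 6 markers were positive on array 1, but the medians of both lists were still lowest on array 1 and highest on array 3, at -0.01 and 0.52 for the 14 and 0.10 and 0.69 for the 6. Their median over the means was -0.0023, 7 were positive and 7 negative, and none passed the test or had an unadjusted p under 0.05. Without array 2 that median was 0.05, none passed, and 2 had an unadjusted p under 0.05, both lower, as 11.2% of all genes did. Tbx18, a T-box factor of the epicardium, was at 0.28 ± 0.49 (-0.29, 0.08, 0.48 and 0.85 on arrays 1 to 4), and Scx, a helix-loop-helix factor of proepicardial and tendon cells, at -0.12 ± 0.18. In bulk tissue, more epicardial cells in a pool and more RNA per epicardial cell cannot be told apart.

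Krt19 departed from these genes on every array. Its ratio exceeded the median of the 14 by 1.73, 0.92, 1.71 and 1.21 on arrays 1 to 4. Rarres2 exceeded it by 1.39, 0.61 and 0.60 on arrays 1, 3 and 4 and lay 0.63 below it on array 2 (a difference of -0.63). Msln and Krt18 shared these signs, with differences of 0.81, -1.18, 0.91 and 0.49 and of 0.63, -0.24, 0.73 and 0.52 on arrays 1 to 4. Tcf21 had the opposite signs, at -0.20, 0.80, -0.36 and -0.34. Krt8 lay above the median of the 14 on all 4 arrays, by 0.25 to 0.55, as did Upk1b, by 0.11 to 0.51. Wt1, Upk3b and Bnc1 lay on both sides of it, with mean differences of 0.10, 0.15 and 0.05. No test of these differences was run.

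**Figure D3:**
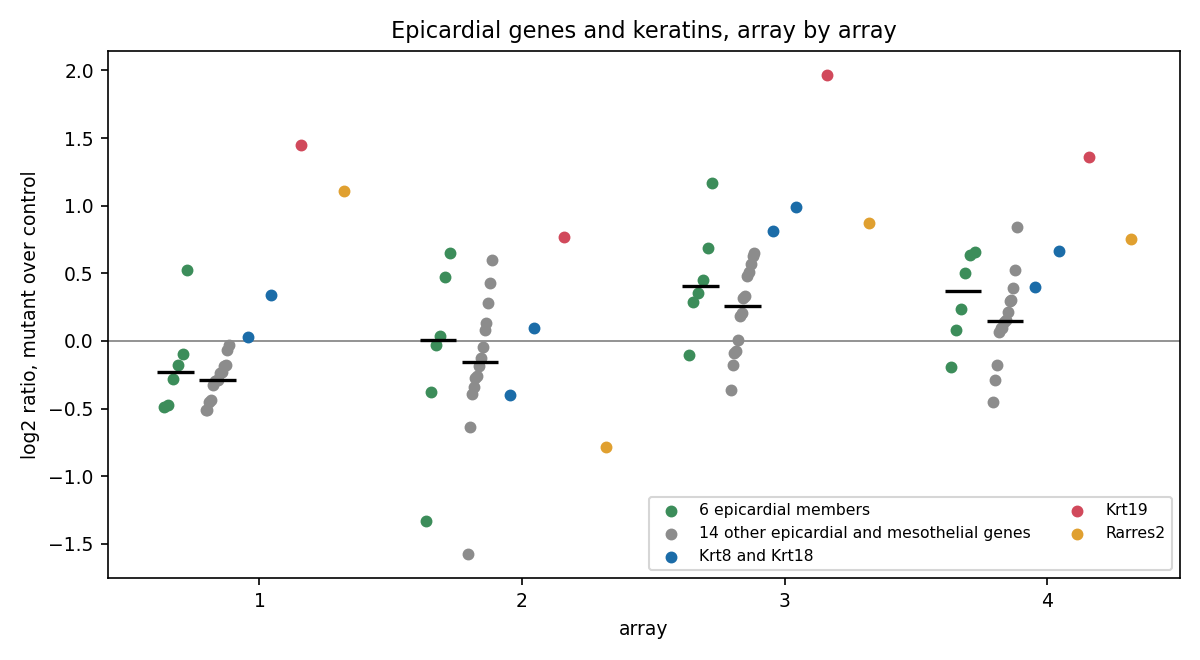
Log2 ratio of mutant over control (vertical axis) on arrays 1 to 4 (horizontal axis) for the 6 epicardial markers (green), 14 other epicardial and mesothelial genes (grey), Krt8 and Krt18 (blue), Krt19 (red) and Rarres2 (yellow), with black bars at the medians of the green and grey groups. All 14 grey points lie below 0 on array 1, and Krt19 lies above every green and grey point on all 4 arrays.

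Control pool 2 differed from the other control pools in several of these genes. It lay above all 3 other control pools for 5 of the 10 (Wt1, Msln, Krt8, Krt18 and Rarres2), below all 3 for Tcf21, Upk3b and Upk1b, and between them for Bnc1 and Krt19, against 23.5% above and 35.7% below over all genes. Relative to the mean of the other control pools, Rarres2 was higher there by 0.96, Msln by 0.66, Krt18 by 0.48 and Wt1 by 0.46, and Krt19 differed by -0.07. The same pool was above all 3 others for 6 of 9 tested genes of a uterus and decidua list and for 9 of 11 of a mesenchyme list. Hoxa10 and Hoxa11, homeobox genes of the uterus, were higher there by 5.49 and 6.57. Esr1, the estrogen receptor, was higher by 2.76 and the fibroblast proteoglycan gene Dcn by 3.67. All 7 tested yolk sac and liver genes and 10 of 11 general epithelial genes were also above the other control pools, among them Cdh1 by 2.21 and Epcam by 1.61. These 6 genes were named after their values were seen. Uterus, mesothelium and simple epithelia share several of the 10 genes, and the part of this material in their array 2 ratios was not tested.

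**Figure D4:**
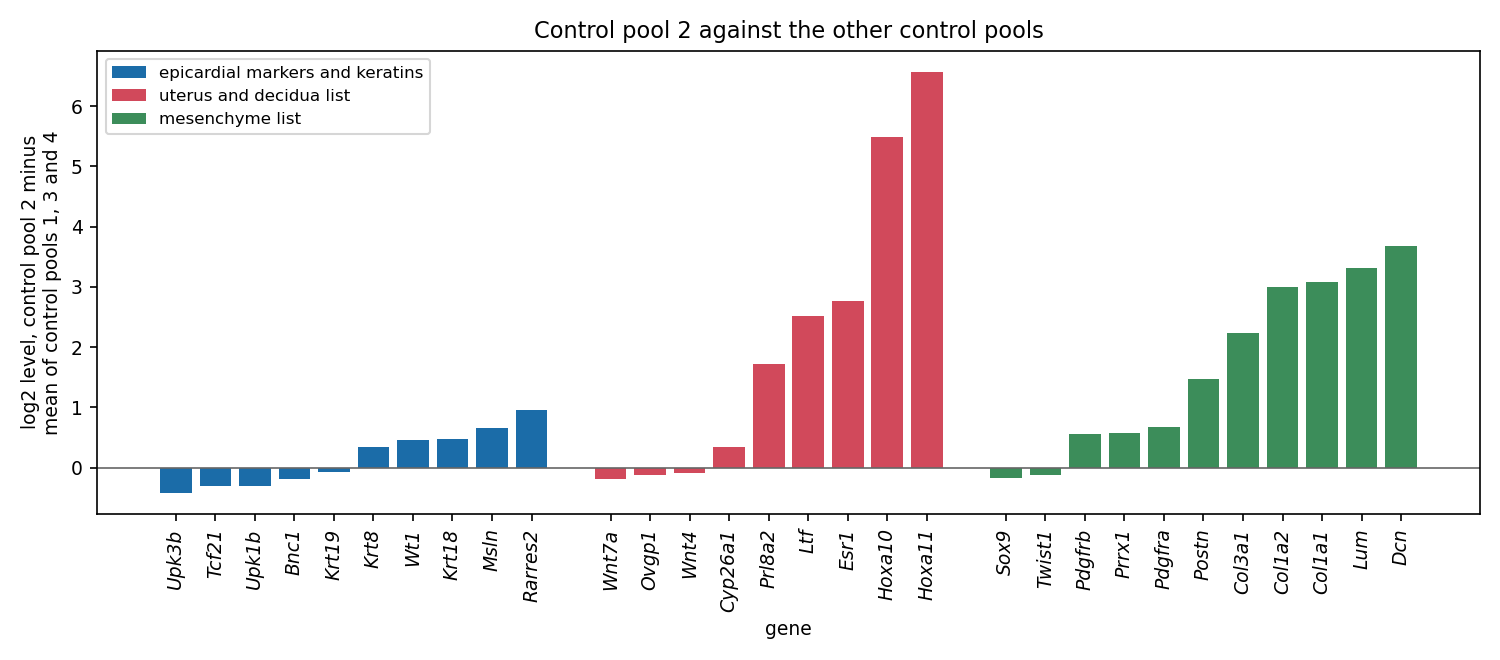
Log2 level in control pool 2 minus the mean of control pools 1, 3 and 4 (vertical axis, bars from 0) for the 10 genes (blue), 9 uterus and decidua genes (red) and 11 mesenchyme genes (green). The blue bars run from -0.42 to 0.96, while Hoxa10 and Hoxa11 reach 5.49 and 6.57.

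Array 3, on which Krt8, Krt18, Krt19, Msln, Bnc1 and Upk1b had their highest ratios, had positive ratios for 7 of 9 uterus and decidua genes and 5 of 5 trophoblast genes, against 50.7% of all genes. Prl8a2, a prolactin family hormone of decidua, read 8.41 in control pool 3 and 11.27 in mutant pool 3, against 7.35 to 8.89 in the other mutant pools and 10.25 in control pool 2. Prl3d1, a placental lactogen of trophoblast, read 8.69 and 10.64 there, but its highest other value was 10.63, in control pool 1. Both genes were named after their values were seen. The summed level of the 9 uterus and decidua genes lay between 11.02 and 14.12 in control pools and between 10.74 and 12.06 in mutant pools. That of 5 trophoblast genes lay between 10.40 and 11.35 in control pools and between 10.42 and 11.70 in mutant pools. Nkx2-1, Shh and Sftpc, defining markers of lung bud, and Trp63 of surface ectoderm did not pass the filter on dim probes. On arrays 1 to 4 Prl8a2 was at 0.37, -1.51, 2.86 and -1.27, and Krt19 at 1.45, 0.77, 1.97 and 1.36. The part of decidual or trophoblast material in these ratios was not tested on any array.

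Other keratins lay on both sides of 0. Of 15 listed, 11 were tested, 8 had a positive mean and 3 a negative one, the median was 0.09, and none passed. Krt15, a type I keratin of stratified epithelia, was at 0.60 ± 0.35 and higher on all 4 arrays (unadjusted p = 0.00669, adjusted p = 0.194). It was dim, with levels of 6.80 to 7.05 in control pools and 7.11 to 7.96 in mutant pools. Krt1, Krt5, Krt13, Krt14 and Krt80 were dim too, so the median and counts of this list rest in part on dim probes. The median of the 11 was 0.13 without array 2. The simple keratins Krt7 and Krt20 were named after their values were seen, being negative or near 0 on arrays 1 and 2 and positive on arrays 3 and 4. Krt7 was at -0.24, -0.49, 0.39 and 0.28 on arrays 1 to 4, and Krt20 at -0.02, 0.0018, 1.24 and 0.77. Krt23 of the same list did not share this, at -0.41, -1.05, -0.26 and 0.0039, with a mean of -0.43 ± 0.45. Among 11 genes of desmosomes and keratin linkage, 5 were positive and 6 negative with a median of -0.05, and the desmosomal cadherin gene Dsc2, at 0.27 ± 0.15, was the 1 with an unadjusted p under 0.05 (adjusted p = 0.247). The desmosome median turned to 0.07 without array 2. Upk1a, the 1 other uroplakin gene past the filter, was at -0.06 ± 0.04, and at -0.06 without array 2. It was dim, with levels of 6.31 to 6.53 over the 8 pools, so its small ratio does not show a lack of change.

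Genes reported as targets of Wt1 were spread around 0. Of 8 listed and tested, 3 were positive and 5 negative, with a median of -0.04, which turned to 0.02 without array 2, and none past the threshold. Erbb3, a neuregulin receptor gene that is also active in cushion mesenchyme, was at -0.34 ± 0.10 and lower on all 4 arrays (adjusted p = 0.151), and Spry1, a feedback inhibitor of receptor kinases, at 0.30 ± 0.24 (adjusted p = 0.300). Of 3 tested relatives of the factors (median -0.03, and 0.02 without array 2), none passed, Tcf15 was at -0.20 ± 0.28, and Egr1, an immediate early gene, was at 2.41 on array 1 against -0.40 to 0.67 on the others.

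Lists of other cell types in the same pools stood as follows, with no member past the threshold on 4 arrays. Without array 2, Myh7, Myl7 and Rbp4 passed on the higher side (adjusted p = 0.0334, 0.0450 and 0.0372, limma). Postn passed on the lower side (adjusted p = 0.0498, limma), and 1.01% of all genes passed in that setting. General epithelial genes had a median of -0.09 (11 tested, 2 positive), which turned to 0.05 without array 2 (8 positive). Lsr was at -0.19 ± 0.22 and Grhl2, which was dim with levels of 6.35 to 6.86, at -0.21 ± 0.28. Mesenchymal genes had a median of -0.55 (11 tested, all with negative means), with Postn at -0.94 ± 0.60 and Prrx1 at -0.55 ± 0.24, and their median was -0.21 without array 2. Heart muscle genes had a median of 0.57 (7 tested, 6 positive), with Myh7 at 1.09 ± 0.22 and Myl7 at 1.04 ± 0.29, and their median was 0.35 without array 2. The 295 genes with a mean log2 intensity above 16 had a median ratio of 0.33 themselves. Endocardial genes had a median of 0.05 (6 tested) and erythroid genes one of 0.84 (5 tested), and without array 2 these were -0.0076 and 0.70, with Npr3 at 0.32 ± 0.30 and Hbb-bh1 at 1.10 ± 0.76. The part of these shifts in the ratios of the 10 genes was not tested. Yolk sac and liver genes (7 tested), surface ectoderm genes (3), foregut and lung bud genes (3) and trophoblast genes (5) had medians of 0.15, -0.26, 0.22 and 0.12. Without array 2 these were 0.15, 0.05, 0.33 and 0.10, so that of surface ectoderm turned. Of the yolk sac and liver genes 4 had positive means and 3 negative ones, with Trf at -0.23 ± 0.16 and Apob at 0.18 ± 0.10. Afp, named after its values were seen, was at 2.58, 1.73, 1.35 and -0.63 on arrays 1 to 4. Its mean was 1.26 ± 1.36 (adjusted p = 0.347, limma). The part of yolk sac or liver material in the ratios of the 10 genes was not tested. Uterus and decidua genes had a median of -0.12, and of 0.09 without array 2.

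Genes most like 3 of the members were sought over the 8 channel levels, among 9535 genes whose level varied at least as much as the median gene. These correlations are a description, over pools that share arrays in pairs. Levels of Krt19 were most like those of Dennd3, Lonrf1, Prelid2, Dpp6 and Rpl26 (Pearson's r from 0.977 to 0.982), whose mean ratios lay between 0.31 and 0.67 each below that of Krt19. Wt1 was most like Steap1, Serpinb6c, Prkcz, Tmed5 and Serpinh1 (r from 0.932 to 0.962), none with a mean ratio beyond 0.15 in size. Rarres2 was most like Lims2, N4bp3, Rbp4, Rps29 and Vldlr (r from 0.952 to 0.983). Rbp4, the carrier of retinol in blood, read 1.13, -0.53, 1.09 and 0.78 on arrays 1 to 4, and since it was picked for its likeness to Rarres2, that pattern is no separate observation.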

How the data were processed

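Transcripts of 8 AVC pools were measured on 4 Agilent arrays with a dye per genotype. Per the file headers, the deposited intensity columns give each spot's mean signal and median local background by channel, as read by Agilent Feature Extraction 9.5.1. The headers also describe a processed intensity, deposited after background subtraction, detrending and dye normalization. Its deposited log10 ratio has the mutant (red) channel on top, and the authors' series table held that same ratio for the spots that are not controls, at least 43377 of 43379 on each array having both values (largest difference 5e-07), with a median of 0 in every column.

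Starting from the mean and background signals, normexp with an offset of 50 and then loess, blind to control spots, were applied in limma 3.58.1 under R 4.3.3. Spots of a probe were averaged. Probes counted as measured where at least 3 arrays had them well above background in either channel, which left 28794 of 41174 probes and 19091 genes, each represented by its probe of highest mean intensity. Names came from a RefSeq table for 22951 probes by accession, 6659 by symbol and 3109 by synonym, and 8455 kept the file's name. Levels are log2 channel values after loess and Aquantile scaling. The log2 ratios were fitted with lmFit and eBayes and compared with 0 (2-sided), p-values were adjusted over all genes by Benjamini and Hochberg's method, and 0.05 was the threshold. Every p, adjusted or not, comes from a limma fit across all genes, except the lowest p of the sign permutation. Values for 4 arrays come from this fit, and those of an alternative setting from the fit of that setting. On simulated ratios with independent noise, of equal spread on all arrays, the main fit returned the mean of known changes. Averaging must return it, so this run checks the code alone. That run does not test the p-values for arrays of unequal spread, as array 2 had here. The number of arrays limits the precision. Array number pairs the pools, since both were hybridised together. The 10 genes and the gene lists were chosen with earlier results of these data known. Named from each other list were up to 4 genes of lowest p, or up to 2 where none was under 0.05, and for Wt1, Krt19 and Rarres2 the 5 genes of most similar level over 8 channels. Alternatives were other background corrections, normalizations, filters, probe rules and weights, an unpaired fit, and leaving out each array. Slide and scan were shared by all arrays.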

Additional observations from a re-analysis of the deposited data

How the results depend on the processing

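With 4 arrays none of the 10 genes passed, 1 of all genes did, 1 of the 10 had an unadjusted p under 0.05 and 2 had one sign on all arrays (limma). All genes past the threshold numbered 3 with the scanner software's processed ratio, 0 with a normexp offset of 16 (2686 genes at an unadjusted p under 0.05) and 0 with the mean over all probes of a gene (2538 genes). Median centring in place of loess gave 5 of the 10 past the threshold (Upk3b, Upk1b, Krt8, Krt18 and Krt19), 7 at an unadjusted p under 0.05, 6 with one sign and 7772 of all genes (40.7%), 7202 higher and 570 lower. It moved the median of all genes to 0.23, and that of genes as bright as Krt19 (A from 10 to 12) to 0.33. Median centring leaves the trend of the ratio with intensity in place, and dye and genotype cannot be told apart in that trend. Krt19 was at 1.76 and Tcf21 turned to 0.32 with median centring. With the running median over intensity removed, 2 of the 10 (Krt8 and Krt19) had an unadjusted p under 0.05. Array quality weights, 0.29 for array 2 and from 0.73 to 2.20 for the others, gave 3 of the 10 past the threshold (Krt18, Krt19 and Rarres2), 7 at an unadjusted p under 0.05 and 1574 of all genes (8.24%). Without the pairing of pools by array (no replicate block), 1 of the 10, Krt19, passed (adjusted p = 0.0357), 2 had an unadjusted p under 0.05 and 185 of all genes passed (0.969%). Leaving out each array in turn gave 0 to 2 of the 10 past the threshold, 1 to 6 at an unadjusted p under 0.05, 2 to 6 with one sign, and 0 to 193 of all genes past it, the highest counts of calls being those without array 2. In those settings log2 ratios ranged from -0.041 to 0.25 for Wt1, from -0.26 to 0.12 for Tcf21, from -0.058 to 0.78 for Msln and from -0.090 to 0.22 for Bnc1, so these 4 changed sign. Krt8, Krt18, Krt19, Rarres2, Upk1b and Upk3b stayed positive in all settings run, with Krt19 between 1.19 and 1.76. No probe of the 10 was near background.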
